A study of Mus musculus with 2 samples.

Results

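The cullin ligase genes of mouse platelets were compared on 1 array of Smad4 −/− mice and 1 array of Smad4 f/f mice. Members were chosen by gene symbol alone, as probe sets annotated to 1 gene that is a cullin, Ddb1, Ddb2, Rbx1, Rnf7, Skp1, Skp2, or a numbered member of the Dcaf, Fbxl, Fbxo, Fbxw, Klhl or Kctd families. This gave 142 genes with 259 probe sets, of 18193 genes on the array with such an annotation. The symbol rule itself uses no signal value, though it was proposed with earlier results of these data known.

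The Smad4 −/− mice were bred to lack Smad4 in megakaryocytes and platelets. Their Smad4 gene is flanked by loxP sites and is cut out by Cre under the PF4 promoter, which is active in megakaryocytes. The Smad4 f/f mice carry the same loxP-flanked gene and served as controls, and the labels do not say whether they carry Cre. All were C57BL/6 mice, 6 per genotype. Washed platelets were the source of the RNA, and neither the age of the mice nor any pooling of their RNA is given in the sources used here.

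Cullin ligases attach ubiquitin to other proteins. A cullin scaffold holds a RING subunit at one end, which brings in the ubiquitin-charged enzyme, and an adaptor with an exchangeable substrate receptor at the other. CUL1 uses SKP1 and F-box proteins, and CUL4A and CUL4B use DDB1 and DCAF proteins. CUL3 binds BTB proteins without a separate adaptor, among them members of the KLHL and KCTD families, though not every KCTD protein. Which members bind a cullin was not tested here. Platelets have no nucleus, so their mRNA was made in the megakaryocyte.

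With 1 array per genotype there are no replicates, no test was possible, and precision is limited by the number of arrays. For each gene the MAS5 signal of its strongest probe set was used, judged by the mean of the log2 signals. Probe sets ending in _x_at were passed over unless a gene had no other kind, and strongest is meant in this sense below. Signals under a floor of 145, a log2 signal of 7.18, were raised to that floor before ratios were taken. Genes that reached the floor on 1 array or both were taken as measured, and a fold with 1 array below it is given as a lower bound. A 2-fold difference served as a rule of size only. In such bulk samples, fewer cells of a type and less RNA per cell cannot be told apart.

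The targeted gene, Smad4, read 894 in Smad4 −/− and 949 in Smad4 f/f by its strongest probe set. Its other 2 probe sets read 548 and 288 in Smad4 −/− and 600 and 313 in Smad4 f/f, so a loss of Smad4 mRNA was not seen in these signals. Where the probe sets lie relative to the deleted part was not analysed here, so they do not check the labels, and both genotypes are named as labelled. All 16 platelet markers on the array were measured and 0 passed 2-fold. Among erythroid markers, 7 of the 15 that were measured lay 2-fold or more above Smad4 f/f in Smad4 −/− and 0 below, and the summed signal of that list was 34238 in Smad4 −/− and 15183 in Smad4 f/f. Hba-a1 and Epb42, which encode a globin and a red cell membrane protein, lay below the floor on both arrays by their chosen probe sets, but the other probe set of Epb42 had a log2 ratio of at least 0.70, with only Smad4 f/f below the floor. The lists of T and NK cell, B cell, and neutrophil and monocyte markers had 1 gene each past 2-fold, of 9, 5 and 5 measured, and the endothelial list had 0 of 3. The Gapdh controls had a ratio of 3' to 5' signal of 2.61 in Smad4 −/− and 1.86 in Smad4 f/f.

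Most cullin ligase genes had a signal, and few differed much between the genotypes. Of the 142 members, 103 (72.5%) were measured, against 61.0% of all genes. In Smad4 −/−, 4 of the 103 were at least 2-fold higher and 3 at least 2-fold lower, and 96 did not pass 2-fold by this rule. Of the 103 ratios, 29 were bounds with 1 array below the floor. A gene with such a bound may differ by more, so not passing does not place it within 2-fold. Over all 11089 measured genes, 7.0% passed 2-fold, 3.42% higher and 3.58% lower. The members' share of 6.80% is near this background, so their count is no result about the members as a whole, and neither is a count of 0 in one of their small families. The 4 higher members were Ddb1, Fbxo7, Kctd1 and Fbxo45, and the 3 lower members were Fbxo6, Fbxo8 and Rbx1.

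The median log2 ratio of the measured members was −0.12, against −0.02 over all measured genes, and 58 of 103 had a ratio below 0, against a background of 51.7%. At 1.5-fold, 14 members were higher and 16 lower, 29.1% in all, where the background was 11.8% higher, 13.3% lower and 25.1% in all. Most members past 2-fold had weak signals. Of 73 members with a mean log2 signal under 9, 6 passed 2-fold (8.22%, against 8.03% of all such genes), and of the 30 with a stronger signal only Kctd1 did (3.33%, against 5.06%).

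**Figure D1:**
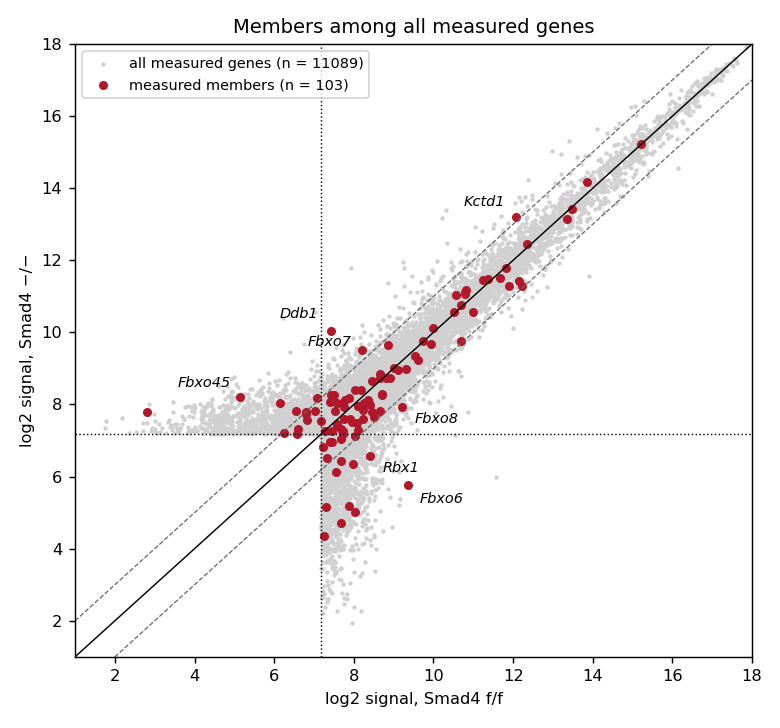
Log2 signal in Smad4 −/− (vertical axis) against Smad4 f/f (horizontal axis) for the 103 measured members in red and all 11089 measured genes in grey, each by its strongest probe set. The solid line marks equal signal, the dashed lines 2-fold differences and the dotted lines the floor of 7.18; the 7 named members lie outside the dashed lines once values under the floor are raised to it.

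None of the 8 cullin genes passed 2-fold, and they went both ways. All 8 were measured, with a median log2 ratio of −0.30, 5 below 0 and 3 above. The 3 past 1.5-fold, Cul1, Cul7 and Cul9, were all lower in Smad4 −/−. They make up 37.5% of the 8, against 25.1% of all measured genes, and so few genes give no result about the family. Cul1, the scaffold of the SCF ligases, read 2769 in Smad4 −/− and 4566 in Smad4 f/f, a log2 ratio of −0.72 from 1 probe set.

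Cul7 and Cul9 encode related large scaffolds, and CUL7 works with the F-box protein FBXW8. The signal of Cul7 was 32.3, below the floor, in Smad4 −/− and 262 in Smad4 f/f, which is at least 1.80-fold lower. Cul9 read 203 in Smad4 −/− and 363 in Smad4 f/f, 1.79-fold lower. Both rest on 1 measured probe set with signals not far from the floor.

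The scaffold of the BTB protein ligases, Cul3, read 2211 in Smad4 −/− and 1772 in Smad4 f/f by its strongest probe set, a log2 ratio of 0.32. Its 5 measured probe sets did not go one way, with log2 ratios from −0.75, a bound set by the floor, to 0.32. Cul5, which works with elongins and SOCS-box proteins, read 2126 in Smad4 −/− and 1759 in Smad4 f/f. Both of its measured probe sets were slightly higher in Smad4 −/−, at 0.27 and 0.28.

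The paralogous scaffolds of DDB1, Cul4a and Cul4b, differed little. Cul4b read 2864 in Smad4 −/− and 2657 in Smad4 f/f, and its probe sets gave log2 ratios of 0.11 and −0.04. Cul4a lay just above the floor on both arrays, at 154 in Smad4 −/− and 174 in Smad4 f/f. Cul2, the scaffold that serves the von Hippel-Lindau protein, read 252 in Smad4 −/− and 337 in Smad4 f/f, a log2 ratio of −0.42.

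**Figure D2:**
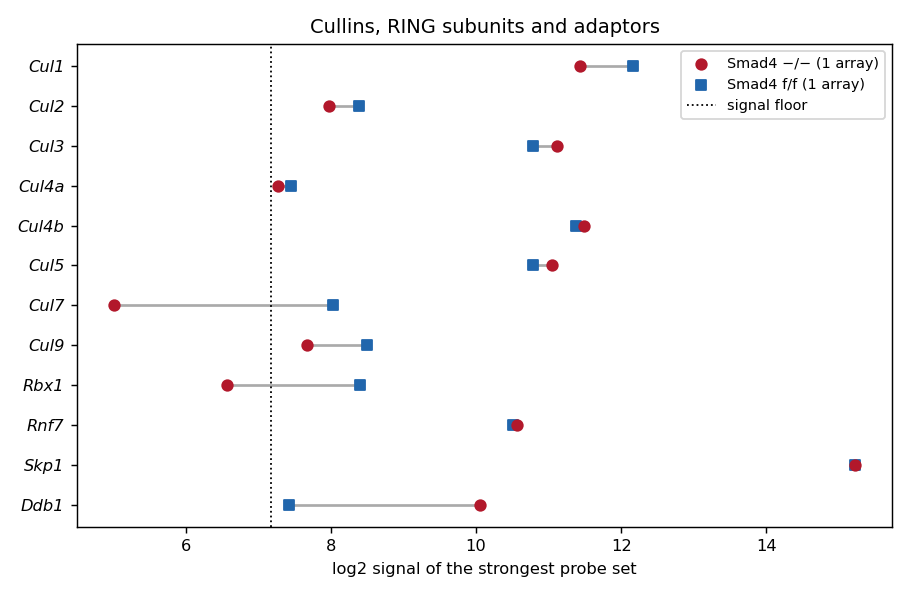
Log2 signal of the strongest probe set of each cullin, RING subunit and adaptor gene, with a red circle for the Smad4 −/− array and a blue square for the Smad4 f/f array, 1 array each; the dotted line is the signal floor of 7.18. The longest gaps with Smad4 −/− lower are those of Cul7 and Rbx1, both below the floor on that array, and the longest gap with Smad4 −/− higher is that of Ddb1.

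Ddb1, the adaptor of CUL4 ligases, which also takes part in the recognition of ultraviolet damage in DNA, was the member with the highest ratio. It read 1061 in Smad4 −/− and 172 in Smad4 f/f, 6.15-fold higher, which was rank 7 from the top among 11089 measured genes. This rests on 1 probe set, and its Smad4 f/f signal lay just above the floor. Across the 8 alternative ways of processing, its log2 ratio stayed between 2.03 and 2.71. Several of these could not change it. It has 1 probe set with both signals above the floor, so a lower floor or another choice of probe sets had no effect. The scaffolds it binds, Cul4a and Cul4b, showed no such difference.

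The other subunits shared by many ligases gave mixed readings. Skp1, which links F-box proteins to CUL1, read 38325 in Smad4 −/− and 38230 in Smad4 f/f by its strongest probe set, and its other probe set read 28588 in Smad4 −/− and 19039 in Smad4 f/f. Rnf7, the RING subunit that pairs with CUL5, read 1517 in Smad4 −/− and 1463 in Smad4 f/f, with 1110 in Smad4 −/− and 759 in Smad4 f/f by its other probe set. For both genes the strongest probe set was nearly level while the other was higher in Smad4 −/−, with log2 ratios of 0.59 for Skp1 and 0.55 for Rnf7.

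Rbx1, the RING subunit of most cullins, shows how far a value can depend on the probe set. Its only probe set annotated to 1 gene read 94.6, below the floor, in Smad4 −/− and 340 in Smad4 f/f, at least 2.34-fold lower. With the floor at the 75th percentile that log2 ratio was −0.38. Of 5 probe sets annotated to both Rbx1 and the pseudogene Rbx1-ps, which the rule leaves out, the 2 strongest were nearly level. The first of them read 24563 in Smad4 −/− and 23935 in Smad4 f/f, and the other 16650 in Smad4 −/− and 15398 in Smad4 f/f, log2 ratios of 0.04 and 0.11. Rbx1 and its pseudogene cannot be told apart by these probe sets, so the difference in Rbx1 is uncertain.

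Promoters of 5 of the 7 members past 2-fold were taken from RefSeq for the GRCm38.p6 assembly. Those of Fbxo45 and Kctd1 were not among them. Of the 5, Ddb1 and the 3 F-box genes Fbxo6, Fbxo7 and Fbxo8 lay past 2-fold without the doubt attached to Rbx1. The promoters of these genes are therefore shown. Each is the 250 bases before the start of the gene (the first listed start where there are several), 5′ to 3′ on the strand of the gene. Ddb1 lies at chr19:10605347-10605596 (+), Fbxo6 at chr4:148152136-148152385 (−), Fbxo7 at chr10:86021679-86021928 (+) and Fbxo8 at chr8:56550904-56551153 (+). Capitals mark 3 motifs searched on both strands. The SMAD box was CAGAC or its reverse complement GTCTG. The GATA motif was GATAA or its reverse complement TTATC. The ETS motif was CCGGAA or its reverse complement TTCCGG.
Ddb1: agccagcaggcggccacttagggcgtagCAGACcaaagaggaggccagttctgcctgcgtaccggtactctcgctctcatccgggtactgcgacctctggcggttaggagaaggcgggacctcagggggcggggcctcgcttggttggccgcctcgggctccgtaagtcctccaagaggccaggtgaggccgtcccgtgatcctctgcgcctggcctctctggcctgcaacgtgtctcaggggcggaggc
Fbxo6: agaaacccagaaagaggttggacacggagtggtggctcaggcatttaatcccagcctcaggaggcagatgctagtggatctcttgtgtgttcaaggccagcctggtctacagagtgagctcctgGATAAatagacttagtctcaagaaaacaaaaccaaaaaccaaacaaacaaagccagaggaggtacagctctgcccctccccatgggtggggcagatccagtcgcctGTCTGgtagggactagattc
Fbxo7: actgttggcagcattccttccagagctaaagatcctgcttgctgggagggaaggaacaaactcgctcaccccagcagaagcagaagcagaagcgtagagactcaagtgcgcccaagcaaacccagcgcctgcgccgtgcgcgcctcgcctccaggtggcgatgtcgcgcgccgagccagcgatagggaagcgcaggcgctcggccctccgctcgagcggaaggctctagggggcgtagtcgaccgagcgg
Fbxo8: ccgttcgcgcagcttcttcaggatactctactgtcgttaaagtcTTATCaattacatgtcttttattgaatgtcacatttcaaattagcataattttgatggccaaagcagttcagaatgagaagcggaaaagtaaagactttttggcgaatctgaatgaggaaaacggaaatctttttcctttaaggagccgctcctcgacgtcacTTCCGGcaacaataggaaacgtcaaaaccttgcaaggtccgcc

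The SMAD box was found once in Ddb1, which was higher in Smad4 −/−, 222 bases before the start, and once in Fbxo6, which was lower, 20 bases before the start. Fbxo6 also held 1 GATA motif, Fbxo8 held 1 GATA and 1 ETS motif, and none of the motifs was found in Fbxo7. No matches overlapped. A SMAD box this short is common. It was present in 38.6% of the 83 measured members with an entry, in 40.9% of the measured genes and in 42.1% of the 27025 genes with a promoter entry. GATA motifs were in 18.1% of those 83 promoters and 15.1% of measured genes, and ETS motifs in 27.7% of those promoters and 21.0% of measured genes. A match is a description of the letters only.

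No receptor of the CUL4 ligases passed 2-fold, though 2 of their ratios were bounds with 1 array below the floor. Of 13 genes, 12 were measured, with a median log2 ratio of −0.20, and the 3 past 1.5-fold were all higher in Smad4 −/−. A share of 3 in 12 is near the background of 25.1% of all measured genes past 1.5-fold. So few genes give no result about the family, nor does their shared direction. Ddb2, which recognises ultraviolet damage in DNA, read 223 in Smad4 −/− and 7.04 in Smad4 f/f, at least 1.54-fold higher with the Smad4 f/f value below the floor. Its other probe set did not reach the floor on either array and ran the opposite way, 14.5 in Smad4 −/− and 89.0 in Smad4 f/f. The level of Ddb2 was therefore near the limit of what these arrays measured.

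Dcaf1, a receptor used by the Vpr protein of HIV, read 309 in Smad4 −/− and 172 in Smad4 f/f, a log2 ratio of 0.85. Dcaf4 read 266 in Smad4 −/− and 169 in Smad4 f/f, a log2 ratio of 0.66. Both rest on 1 measured probe set. The DCAF genes named for their strong signal differed less. Dcaf11 read 9033 in Smad4 −/− and 10486 in Smad4 f/f, a log2 ratio of −0.22. Dcaf12 read 2118 in Smad4 −/− and 1504 in Smad4 f/f by its strongest probe set, and the log2 ratios of its 3 measured probe sets ran from −0.01 to 0.90. The remaining measured receptors, Dcaf5, Dcaf6, Dcaf7, Dcaf8, Dcaf13, Dcaf15 and Dcaf17, had log2 ratios from −0.42 to 0.14 by their strongest probe sets. Those of Dcaf5, Dcaf7 and Dcaf17 were below 0, whereas a weaker probe set of each, below the floor in Smad4 f/f, gave log2 ratios of at least 0.79, 0.43 and 0.35. Dcaf10 lay below the floor on both arrays.

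The F-box receptors of CUL1 ligases form the largest part of the list, with 67 genes, of which 45 were measured. In Smad4 −/−, 2 were at least 2-fold higher and 2 lower, 8.89% against the background of 7.0%. All of them lay in the Fbxo class, which holds F-box proteins without leucine-rich or WD40 repeats. Of 32 Fbxo genes 26 were measured, with a median log2 ratio of 0.09, and 11 of these ratios were bounds with 1 array below the floor. In the Fbxl and Fbxw classes 0 of 9 and 0 of 10 measured genes passed 2-fold, and their medians were −0.15 and −0.34. Counts this small are no result about a class. Ratios were below 0 for 7 of the 9 Fbxl and 7 of the 10 Fbxw genes, against a background of 51.7%, and these classes are too small to read a shift from this.

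Fbxo6, whose protein binds high-mannose sugars on misfolded glycoproteins, had the lowest ratio of all members. It read 54.1, below the floor, in Smad4 −/− and 662 in Smad4 f/f, at least 4.56-fold lower, which was rank 8 from the bottom among 11089 genes. Its other probe set was below the floor on both arrays. The related gene Fbxo2, whose protein also binds such sugars, read 2903 in Smad4 −/− and 3239 in Smad4 f/f, a log2 ratio of −0.16. So of this pair of sugar-binding receptors, Fbxo6 was far lower and Fbxo2 nearly level.

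Fbxo8, which encodes an F-box protein with a Sec7 domain, read 246 in Smad4 −/− and 591 in Smad4 f/f, 2.41-fold lower by its only probe set, and it had no value without probe sets ending in _s_at or _x_at. Fbxo5, an inhibitor of the anaphase-promoting complex, read 81.8, below the floor, in Smad4 −/− and 252 in Smad4 f/f, at least 1.74-fold lower. Fbxo33 was lower by both of its measured probe sets, with log2 ratios of −0.65 and, as a bound with Smad4 −/− below the floor, −0.38. By the first it read 223 in Smad4 −/− and 350 in Smad4 f/f.

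Fbxo7 stood at the other end. Its protein is known for roles in the proteasome, in mitochondrial quality control and, in mice, in red cell formation. The only Fbxo7 probe set read 729 in Smad4 −/− and 297 in Smad4 f/f, 2.45-fold higher, and its log2 ratio lay between 1.29 and 1.39 under all 8 alternatives. Only a change of normalisation could move this ratio, because neither the floors nor the choice of probe sets affected it. On the same array 7 of the 15 measured erythroid markers also lay at least 2-fold above Smad4 f/f, among them Fech, the last enzyme of haem synthesis (13904 in Smad4 −/− and 4551 in Smad4 f/f), and Alas2, its first enzyme in red cells (3387 in Smad4 −/− and 1413 in Smad4 f/f). The part of red cell RNA in the Fbxo7 signal was not tested. Klf1, Rhd, Tfrc and Hba-a2 of the same marker list had ratios below 0.

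Fbxo45, an atypical F-box protein that acts with a RING ligase of neurons, read 293 in Smad4 −/− and 35.5, below the floor, in Smad4 f/f. That makes it at least 2.02-fold higher, just past the rule of size. With the floor at the 75th percentile the log2 ratio was 0.17, and its other probe set did not reach the floor on either array, at 50.05 in Smad4 −/− and 122 in Smad4 f/f. Just short of 2-fold lay Klhl22, at least 1.98-fold higher.

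The remaining Fbxo genes past 1.5-fold were all higher in Smad4 −/− and all below the floor in Smad4 f/f. Fbxo46 read 263 in Smad4 −/− and 71.4 in Smad4 f/f. Fbxo38 read 224 in Smad4 −/− and 94.1 in Smad4 f/f. Fbxo4, a receptor of cyclin D1, read 220 in Smad4 −/− and 111 in Smad4 f/f. Their ratios are bounds, of at least 1.81-fold, 1.54-fold and 1.51-fold. Fbxo9, named for its strong signal, read 18419 in Smad4 −/− and 14822 in Smad4 f/f, a log2 ratio of 0.31, but its other probe set was level at −0.01.

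**Figure D3:**
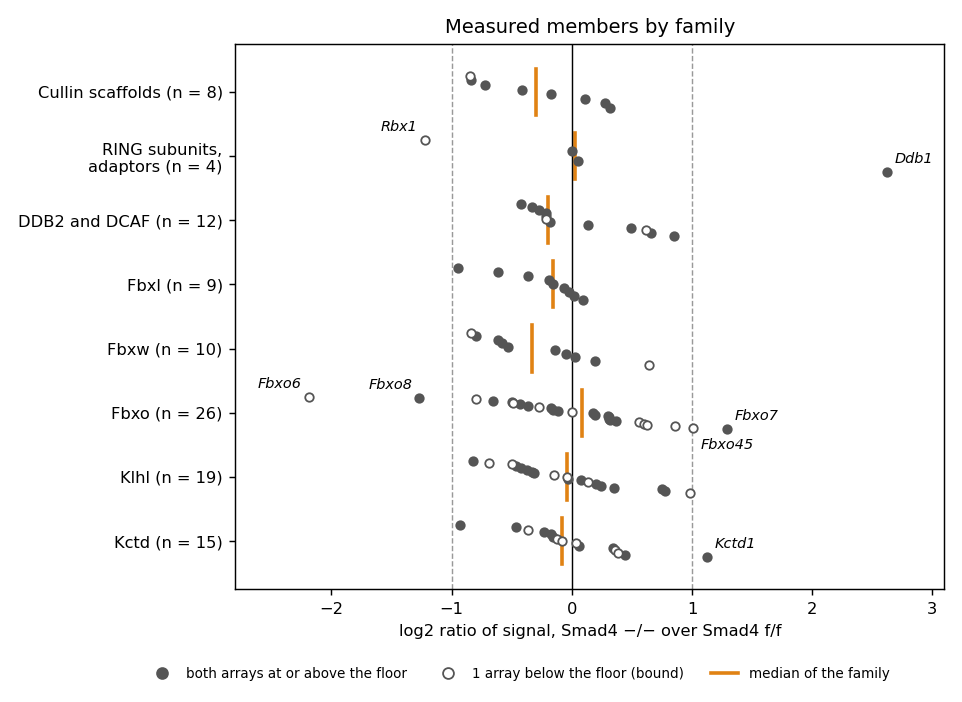
Log2 ratio of signal, Smad4 −/− over Smad4 f/f, for each of the 103 measured members (1 point per gene, by family), with open points where 1 array lay below the floor, so that the ratio is a bound, and an orange bar at the median of the family. Dashed lines mark 2-fold; Ddb1 lies farthest to the right and Fbxo6 farthest to the left, and no cullin, DCAF, Fbxl, Fbxw or Klhl gene passes either line.

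Among Fbxl genes, whose proteins carry leucine-rich repeats, Fbxl2 came nearest to 2-fold. It read 2488 in Smad4 −/− and 4800 in Smad4 f/f, 1.93-fold lower from 1 probe set. Its protein is a lipid-anchored receptor. Fbxl12 read 194 in Smad4 −/− and 298 in Smad4 f/f, a log2 ratio of −0.62. The Fbxl17 protein removes faulty BTB dimers. Fbxl17 was level by its strongest probe set, at 5583 in Smad4 −/− and 5237 in Smad4 f/f, while a weaker one read 311 in Smad4 −/− and 53.2, below the floor, in Smad4 f/f. Skp2, the receptor of the cell cycle inhibitor p27, was below the floor on both arrays by its strongest probe set and by each of its 6 probe sets.

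The Fbxw proteins, with WD40 repeats, include the receptors of beta-catenin and cyclin E. Fbxw11, a receptor of beta-catenin, read 2506 in Smad4 −/− and 3827 in Smad4 f/f by its chosen probe set, a log2 ratio of −0.61. A probe set ending in _x_at, passed over by rule, had a higher signal. It read 11548 in Smad4 −/− and 13452 in Smad4 f/f, a log2 ratio of only −0.22. The third measured probe set gave at least 0.37, with Smad4 f/f below the floor, so the probe sets did not share a direction. Fbxw7, the receptor of cyclin E, read 146 in Smad4 −/− and 211 in Smad4 f/f, a log2 ratio of −0.53 close to the floor.

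Fbxw4 read 157 in Smad4 −/− and 273 in Smad4 f/f, 1.74-fold lower by its only probe set. For Fbxw8, the partner of CUL7, the strongest probe set read 139, below the floor, in Smad4 −/− and 260 in Smad4 f/f, but its other probe sets were higher in Smad4 −/−, with log2 ratios of at least 0.65 and 0.29. All 3 ratios are bounds with 1 array below the floor, and they do not share a sign. Fbxw17 went the opposite way to Fbxw4, with 226 in Smad4 −/− and 130, below the floor, in Smad4 f/f. Fbxw2, named like Fbxw11 for its strong signal, was level at 3508 in Smad4 −/− and 3627 in Smad4 f/f, and its 4 measured probe sets lay between −0.20 and 0.09.

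None of the receptors of CUL3 with kelch repeats, the Klhl family, passed 2-fold, though 6 of their ratios were bounds with 1 array below the floor. Of 33 genes 19 were measured, with a median log2 ratio of −0.04, 8 above 0 and 11 below. Klhl22, a receptor linked to amino acid sensing through the mTORC1 regulator DEPDC5, read 288 in Smad4 −/− and 135, below the floor, in Smad4 f/f. Its log2 ratio, at least 0.99, became 1.06, past 2-fold, when each array was centred on its median. Klhl11 was higher by both of its measured probe sets (log2 ratios of 0.78 and, with Smad4 f/f below the floor, at least 0.59), and by the first read 802 in Smad4 −/− and 468 in Smad4 f/f. Klhl12, which takes part in the formation of large COPII vesicles, read 307 in Smad4 −/− and 182 in Smad4 f/f, a log2 ratio of 0.75.

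The 2 other kelch genes past 1.5-fold were lower in Smad4 −/−. Klhl5 read 227 in Smad4 −/− and 401 in Smad4 f/f, 1.77-fold lower. Klhl40, known from skeletal muscle, read 36.2, below the floor, in Smad4 −/− and 234 in Smad4 f/f, at least 1.61-fold lower. The kelch genes named for their strong signal were nearly level by their strongest probe sets. Klhl6, known from B cells, read 11083 in Smad4 −/− and 11340 in Smad4 f/f, a log2 ratio of −0.03. Klhl24 read 2801 in Smad4 −/− and 2443 in Smad4 f/f, though its 4 measured probe sets ranged from −0.60 to 0.47. The 14 kelch genes below the floor on both arrays included Klhl41, known from muscle, and Klhl10, known from the testis.

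Kctd1 was the only member past 2-fold with more than 1 measured probe set. Its protein, with a BTB domain, represses AP-2 transcription factors. Kctd1 read 9454 in Smad4 −/− and 4334 in Smad4 f/f by its strongest probe set, 2.18-fold higher, and 1098 in Smad4 −/− and 681 in Smad4 f/f by the other. Both probe sets were thus higher in Smad4 −/−. The mean of their log2 ratios was 0.91, short of 2-fold.

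The other Kctd genes did not pass 2-fold, though 6 of their ratios were bounds with 1 array below the floor. Of 17 genes 15 were measured, and the median log2 ratio was −0.08. Kctd9 went against Kctd1, with 863 in Smad4 −/− and 1642 in Smad4 f/f, 1.90-fold lower by its only probe set. Kctd20 was slightly higher by all 3 of its probe sets, which gave log2 ratios from 0.12 to 0.34, and it read 2301 in Smad4 −/− and 1812 in Smad4 f/f. Kctd5, which acts on G protein beta-gamma subunits, read 186 in Smad4 −/− and 143, below the floor, in Smad4 f/f, a log2 ratio of at least 0.36.

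Probe sets of one gene give a yardstick for these readings. In the 37 members with at least 2 measured probe sets, the log2 ratios of probe sets of the same gene had a pooled SD of 0.39, against 0.48 over the 4252 such genes on the array. All measured probe sets had the same sign in 15 of these 37 members, and in 2011 of the 4219 such genes whose chosen probe set was measured. By this yardstick a log2 ratio within 0.39 of 0 is no larger than the disagreement between probe sets of one member. It holds no spread between animals or arrays. Counted by probe set, 8 of 158 measured member probe sets (5.06%) passed 2-fold, against a background of 6.85%.

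**Figure D4:**
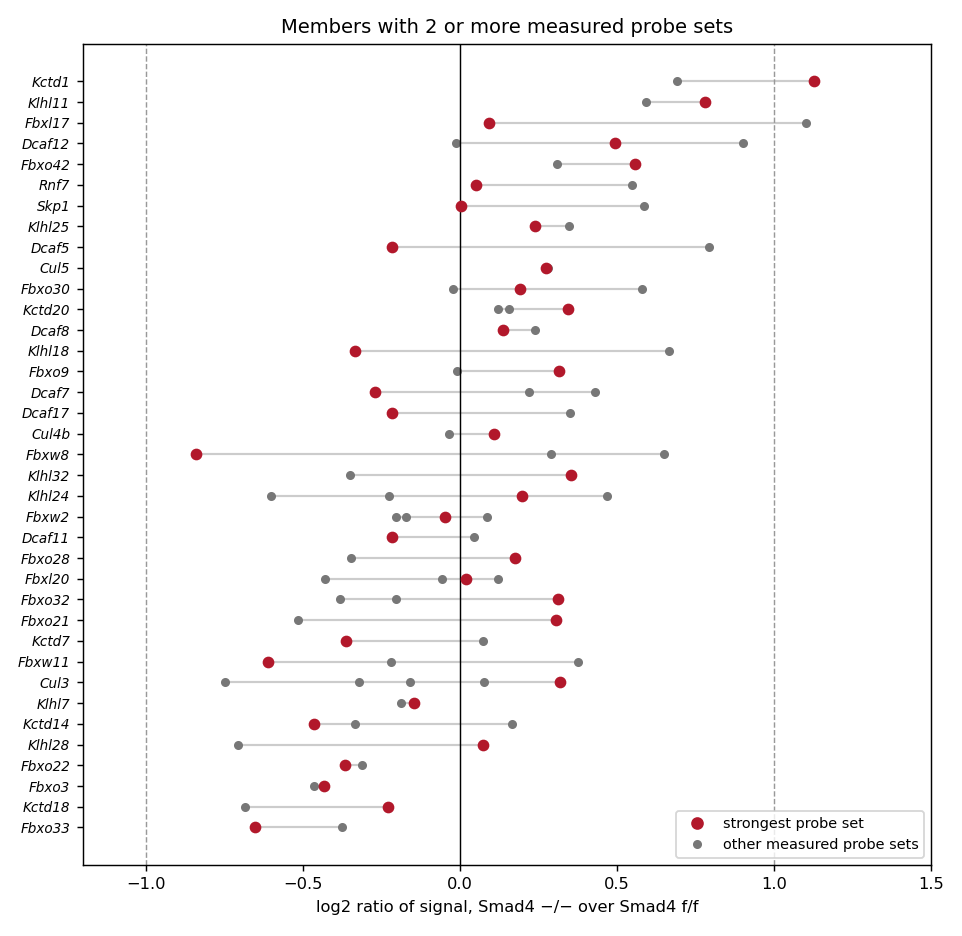
Log2 ratio of signal, Smad4 −/− over Smad4 f/f, for every measured probe set of the 37 members with at least 2 of them (1 row per gene, ordered by the mean of its probe sets). The strongest probe set, leaving out those ending in _x_at, is in red and the others are in grey. Dashed lines mark 2-fold; both probe sets of Kctd1 lie to the right of 0, whereas those of Cul3, Fbxw8 and Klhl24 lie on both sides.

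The enzymes and regulators that switch cullins on and off form a further list, together with ubiquitin-conjugating enzymes such as Ube2r2 and Ube2d2a. Ube2m, 1 of the 34 genes listed, was not found among the genes on the array. NEDD8, a ubiquitin-like protein, activates cullins when attached to them, and the COP9 signalosome removes it. Of 33 such genes on the array that are no members, 28 were measured and 0 passed 2-fold, against the background of 7.0%, which leaves few calls to a list of this size. The list had a median log2 ratio of −0.03 and a range from −0.62, that of Ube2d2a, to 0.49. Nedd8 read 22979 in Smad4 −/− and 23020 in Smad4 f/f. Ube2r2, a ubiquitin-conjugating enzyme that works with SCF ligases, read 29440 in Smad4 −/− and 26104 in Smad4 f/f, a log2 ratio of 0.17, but its other probe set gave −0.50.

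A list of other receptors and adaptors, whose symbols the rule does not match, had 49 measured genes of 60 on the array and a median log2 ratio of 0.02. In Smad4 −/−, 2 were at least 2-fold higher and 1 lower, 6.12% against the background of 7.0%. Kbtbd2, a CUL3 receptor of the regulatory subunit of phosphoinositide 3-kinase, read 623 in Smad4 −/− and 307 in Smad4 f/f, 2.03-fold higher. Spsb1, a CUL5 receptor of inducible nitric oxide synthase, read 403 in Smad4 −/− and 183 in Smad4 f/f, 2.20-fold higher, but its other measured probe set gave a log2 ratio of only 0.14. Kbtbd4 read 260 in Smad4 −/− and 566 in Smad4 f/f, 2.17-fold lower.

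The genes of that list named for their strong signal were nearly level by their strongest probe sets, but their other probe sets did not all follow. The elongin gene Eloc, an adaptor of CUL2 and CUL5, read 34964 in Smad4 −/− and 30982 in Smad4 f/f, and its 4 probe sets gave log2 ratios from −0.67 to 0.21. Asb1, a SOCS-box receptor, read 25793 in Smad4 −/− and 25500 in Smad4 f/f, and its 3 measured probe sets gave log2 ratios from −0.37 to 0.02.

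**Figure D5:**
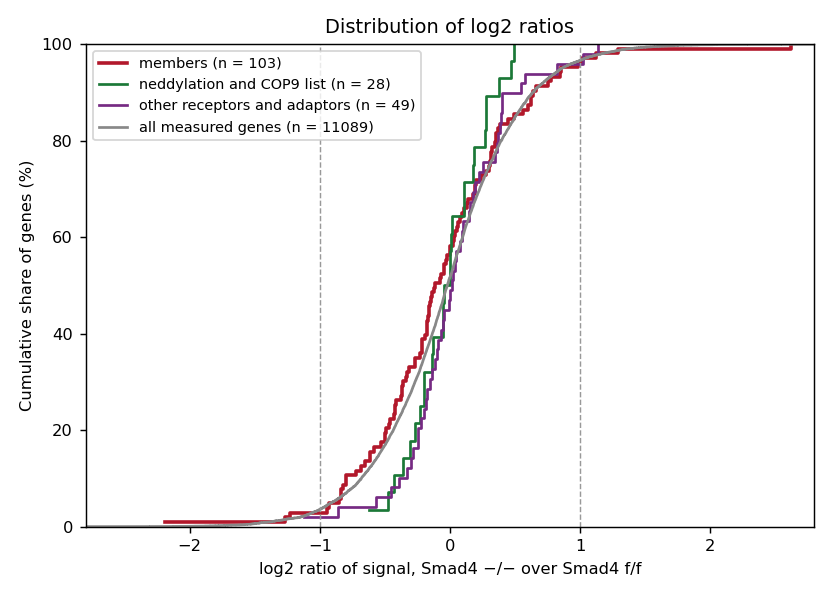
Cumulative share of genes (vertical axis, %) by log2 ratio of signal, Smad4 −/− over Smad4 f/f (horizontal axis), for the 103 measured members, the 28 genes of the neddylation and COP9 list, the 49 other receptors and adaptors and all 11089 measured genes; dashed lines mark 2-fold. The curve of the members follows that of all genes closely, with medians of −0.12 and −0.02, while the neddylation and COP9 list spans only −0.62 to 0.49. That list is small, and 0 of its 28 genes had an array below the floor, against 29 of the 103 members, so the spans are not like for like.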

How the data were processed

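Total RNA of washed platelets was amplified, labelled with biotin and hybridised to whole-genome mouse arrays, per the labels. The authors deposited 1 log2 signal for each probe set on each array. Per the submitters' processing notes MAS5 was used, and neither its version nor its settings are given. The values show that the authors scaled both arrays alike, since the antilogs have a mean of 500.0 on each after trimming 2% at each end. Of 45101 probe sets, 64 are controls, 34945 have 1 gene symbol in the platform annotation, and 932 with several symbols and 9160 with none were not used for gene values. Of 142 members, 142 were found by gene ID in a RefSeq table of GRCm38.p6.

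The floor was set at the 60th percentile of each array without its controls, and the higher value was taken for both. The strongest probe set stood for a gene, and those ending in _x_at stood in only for genes without another kind. Ratios are Smad4 −/− over Smad4 f/f, with no test. Each cullin, RING subunit, adaptor and Ddb2 was named by rule. In the receptor families and both further lists, genes past 2-fold were named and then up to 2 with the highest mean signal. Members past 1.5-fold, and Fbxw7, Kctd5, Klhl10, Klhl41, Skp2, the rest of the Dcaf genes and the erythroid genes were named after their values were seen. Members and lists were chosen with earlier results of these data known.

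Alternatives were median centring, quantile normalisation, a loess correction with a span of 0.3, floors at the 50th and 75th percentiles or none, the mean over a gene's measured probe sets, omission of the _s_at and _x_at probe sets, other size rules, and only genes whose measured probe sets share a sign. The steps were tested on simulated data, with changes placed only in genes with a mean log2 signal of 9 or more. That test therefore does not cover calls at weaker signals. Python 3.11.15, pandas 2.3.3 and statsmodels 0.14.6 were used.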

Additional observations from a re-analysis of the deposited data

How the results depend on the processing

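All 7 members past 2-fold kept their sign under each of the 8 alternatives that gave a value. Not every alternative could change every gene. The settings on probe sets cannot change the ratio of a gene with 1 probe set, and a floor below both its signals cannot either. Ddb1, Fbxo6, Fbxo7 and Fbxo8 also stayed past 2-fold, although Fbxo8 had no value without probe sets ending in _s_at or _x_at. With the floor at the 75th percentile Fbxo45 (0.17) and Rbx1 (−0.38) did not, which left 1 RING subunit or adaptor past 2-fold. With the mean of probe sets Kctd1 did not (0.91), which left 0 Kctd genes. Klhl22 passed 2-fold, as 1 Klhl gene, under median centring, quantile normalisation and the loess correction. With the floor at the 50th percentile 8 members were higher and 6 lower, with 1 cullin, 1 DCAF or DDB2 gene, 7 Fbxo and 2 Klhl genes past 2-fold, while 10.9% of all measured genes passed. With no floor 8 were higher and 11 lower, with 1 cullin, 1 DCAF or DDB2 gene, 9 Fbxo, 2 Klhl and 4 Kctd genes, and 8 genes of the list of other receptors, while 21.9% of all measured genes passed; Cul7 then had a log2 ratio of −3.02 and Ddb2 one of 4.99. At 1.5-fold 14 members were higher and 16 lower, and at 3-fold 1 and 1, Ddb1 and Fbxo6. The median of the members lay between −0.15 with no floor and −0.02 with the floor at the 75th percentile. Of 414 values of the 53 named genes under the alternatives, 380 moved by less than the SD of 0.48 between probe sets of a gene. Every member gained at the 50th percentile or with no floor was already measured, with 1 array below the main floor. Its ratio grew by construction, because the weaker signal was raised less or not at all. With no floor the same genes counted as measured, while the 50th percentile also took in weaker genes. What moved the counts outside the members was not tested. No paired analysis was possible because each genotype has 1 array and the labels give no replicate numbers.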

Other observations

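Of the 8 probe sets annotated to several genes, at least 1 of them with a symbol of the kind the rule takes, 5 belong to Rbx1 and its pseudogene. The probe set shared by Kctd12 and a microRNA gene read 498 in Smad4 −/− and 609 in Smad4 f/f, a log2 ratio of −0.29. The other 2, each shared by a pair of Fbxw genes, lay below the floor on both arrays. Of the 18 Fbxw members, 9 lie on chromosome 9, and 3 of these were measured, Fbxw16, Fbxw19 and Fbxw22, with log2 ratios of −0.14, −0.58 and 0.03. These are closely related genes, and which of them a probe set detects was not tested.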
